A study of Mus musculus with 8 samples.

Results

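Glycolysis and the targets of the hypoxia response were followed here in oral epithelium through 37 gene names. These were 19 genes of the glycolytic enzymes and of the enzymes that make or break down fructose 2,6-bisphosphate, 5 genes of glucose and lactate transport and of the pyruvate dehydrogenase kinases, and 13 other genes known as targets of the hypoxia-inducible factors. Every row of the count table that carried one of the names was taken, which gave 38 rows of 23355 because Aldoa names 2 Ensembl genes. Rows were taken by name alone, and the names were chosen with earlier results of these data known. All 38 rows passed the filter on low counts, which left 14533 genes tested.

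RNA came from buccal (cheek) epithelial cells of wild type C57BL/6 mice kept specific pathogen free, 4 mice of 1 week and 4 of 8 weeks of age. The epithelium was separated with dispase II, the cells were sorted by flow cytometry, and stranded total RNA libraries for very small inputs were made after ribosomal RNA depletion. The gate of the sort, the sex of the mice and any batch are not given in the labels, and no mouse carried a treatment. Libraries are named by age and number, as 1 week 1 to 1 week 4 and 8 week 1 to 8 week 4, and the numbers carry no order.

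Glycolysis splits glucose into pyruvate and yields ATP without oxygen, and lactate dehydrogenase then returns pyruvate to lactate. When oxygen is short, the prolyl hydroxylases that mark the alpha subunits of the hypoxia-inducible factors for destruction slow down, and the stabilised factors bind short DNA elements and raise the transcription of glucose transporters, glycolytic enzymes, mitophagy receptors and angiogenic factors. Many glycolytic genes are also driven by other signals, among them growth factors and mTORC1, so their level alone does not report oxygen.

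The binding element of the hypoxia-inducible factors has the core ACGTG or GCGTG, and 5 promoters of genes that were lower at 8 weeks are shown because they hold it, chosen to cover a transporter, a glycolytic enzyme and the hypoxia targets with the most core elements. Each window runs 5′ to 3′ on the strand of its gene, from 250 bases before to 50 bases after the annotated start. Sequences are from RefSeq, build GRCm38.p6, and capitals mark every match of either core on either strand, with overlapping matches joined into 1 stretch.
Fam162a (chr16:36071512-36071811, minus strand): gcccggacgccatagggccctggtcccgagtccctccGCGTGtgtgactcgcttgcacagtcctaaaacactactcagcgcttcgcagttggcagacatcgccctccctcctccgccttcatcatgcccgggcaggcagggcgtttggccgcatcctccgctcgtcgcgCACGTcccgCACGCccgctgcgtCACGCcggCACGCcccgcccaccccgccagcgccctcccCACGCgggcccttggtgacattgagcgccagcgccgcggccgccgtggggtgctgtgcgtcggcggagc
Bnip3 (chr7:138909457-138909756, minus strand): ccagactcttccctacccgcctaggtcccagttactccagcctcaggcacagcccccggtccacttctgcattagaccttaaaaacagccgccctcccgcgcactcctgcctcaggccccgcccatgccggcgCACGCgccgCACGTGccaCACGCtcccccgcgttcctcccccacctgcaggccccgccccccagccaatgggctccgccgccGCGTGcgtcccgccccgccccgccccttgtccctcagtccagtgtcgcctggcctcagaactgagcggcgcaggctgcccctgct
Ankrd37 (chr8:45999801-46000100, minus strand): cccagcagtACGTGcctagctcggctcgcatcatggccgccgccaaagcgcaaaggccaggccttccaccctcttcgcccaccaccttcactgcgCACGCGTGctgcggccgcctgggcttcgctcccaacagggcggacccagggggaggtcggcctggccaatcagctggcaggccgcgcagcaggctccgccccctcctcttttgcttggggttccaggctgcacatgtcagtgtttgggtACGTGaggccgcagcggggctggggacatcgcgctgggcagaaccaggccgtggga
Pgk1 (chrX:106186850-106187149, plus strand): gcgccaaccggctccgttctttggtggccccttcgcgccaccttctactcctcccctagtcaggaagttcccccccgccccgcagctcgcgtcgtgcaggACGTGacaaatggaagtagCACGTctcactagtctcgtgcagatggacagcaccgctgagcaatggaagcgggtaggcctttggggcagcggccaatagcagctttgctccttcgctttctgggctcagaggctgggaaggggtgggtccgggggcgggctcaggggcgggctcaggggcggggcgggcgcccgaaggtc
Slc2a1 (chr4:119108495-119108794, plus strand): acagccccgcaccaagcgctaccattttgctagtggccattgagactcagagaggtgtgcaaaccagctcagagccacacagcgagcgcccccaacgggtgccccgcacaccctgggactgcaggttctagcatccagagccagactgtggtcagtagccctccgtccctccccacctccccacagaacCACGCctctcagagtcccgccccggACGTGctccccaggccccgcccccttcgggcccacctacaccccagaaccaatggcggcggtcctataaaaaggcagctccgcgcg

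The Fam162a window held 6 such stretches, Bnip3 4, Ankrd37 3, and Pgk1 and Slc2a1 2 each. RefSeq windows were matched for 35 of the 37 names, with Bnip3l and Ndrg1 not matched, and 46 of their 56 windows (82.1%) held at least 1 core. The share over all 32851 promoter windows was 43.8%. Windows of the members were also richer in CpG, with a median of 22 CpG against 7 over all windows, and among the windows with at least 12 CpG the share with a core was 69.8%. Of the members lower at 8 weeks all 16 windows held a core, and of the members not called 29 of 38 did (76.3%). Some genes gave several windows, and counted by gene it was 11 of 11 against 21 of 23 (91.3%). The windows of the lower members were also richer in CpG, with a median of 28 against 16.5. A match describes these letters only and is not evidence of binding.

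Across the 38 rows, 12 genes fell between 1 and 8 weeks of age, 1 rose (Hk1, whose call was lost whenever 1 library was left out) and 25 were not called. Of the 12 that fell, only Fam162a, Higd1a and Ddit4 kept their call in each of the 8 fits that left out 1 library. A gene was called where edgeR's quasi-likelihood test gave it a p-value below 0.05 after Benjamini-Hochberg adjustment, and log2 fold changes are 8 weeks over 1 week. In all genes tested, 3.22% were called lower and 3.33% higher. The median log2 fold change was -0.36 over the 38 rows and -0.00 over all genes tested. It was negative in 32 of the 38 rows (84.2%), against 50.2% of all genes. Among the 12 genes that fell, only Pfkfb3 changed by at least 2-fold. In bulk samples, fewer cells of a type and less RNA per cell cannot be told apart, and this holds for every change given here. In the authors' deposited table, 14 of the 38 rows were lower and 1 higher at an adjusted p under 0.05, where 3.28% of its 23261 genes with an adjusted p were lower and 3.33% higher.

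Among the 13 other hypoxia targets, 7 fell and the log2 fold change was negative in all 13, with a median of -0.66. Among the 20 rows of glycolytic enzymes, 4 fell, 1 rose and the median was -0.33. Among the 5 transport and kinase genes, 1 fell and the median was -0.26. The difference between these medians was not tested. Groups did not overlap, with all 4 libraries of 8 weeks below all 4 of 1 week in CPM, for 15 of the 38 rows, and Hk1 showed the opposite order. Over all genes tested these shares were 7.11% below and 7.69% above.

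**Figure D1:**
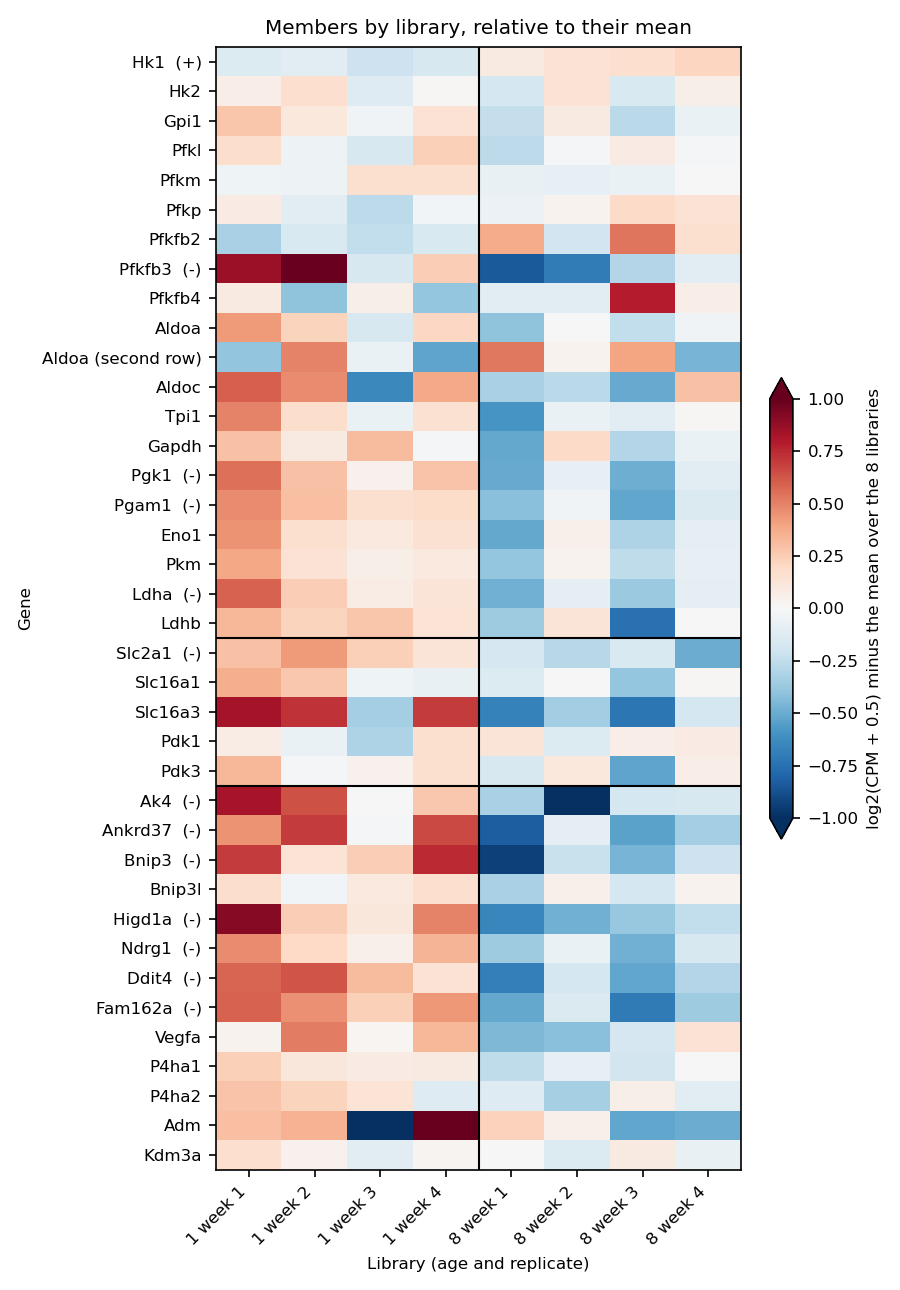
Each row is a gene and each column a library. Colour gives the gene's log2(CPM + 0.5) minus its mean over the 8 libraries, on a scale clipped at 1, with (-) for genes called lower and (+) for Hk1, called higher at 8 weeks. Lines separate the ages and the glycolytic enzymes, the transport and kinase genes and the other hypoxia targets. The library 1 week 1 held the highest 1 week value for 23 of 38 rows, and 8 week 1 the lowest 8 week value for 19.

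The libraries themselves differed in ways that touch these genes. They held 11747783 to 16807773 counts each. The slope of a library's log2 levels on transcript length, per doubling of length, ran from -0.174 (1 week 1) to -0.046 among the 1 week libraries and from -0.022 (8 week 2) to 0.199 (8 week 1) at 8 weeks. The median log2 fold change of protein-coding genes went from -0.31 in the shortest of 10 classes of transcript length to 0.27 in the longest. With each library's trend on transcript length and GC content removed by an offset, 10 members were called lower and 0 higher. In that fit 1.60% of all genes were lower and 1.20% higher. Hk1 was not called there, with Ankrd37 and Ldha, and the median over the 38 rows was -0.29. The medians became -0.21 for the enzymes, -0.30 for the transport and kinase genes and -0.44 for the other hypoxia targets. Of the 38 unadjusted p-values without the offset, 24 were under 0.05, where 4041 of all 14533 genes tested were.

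**Figure D2:**
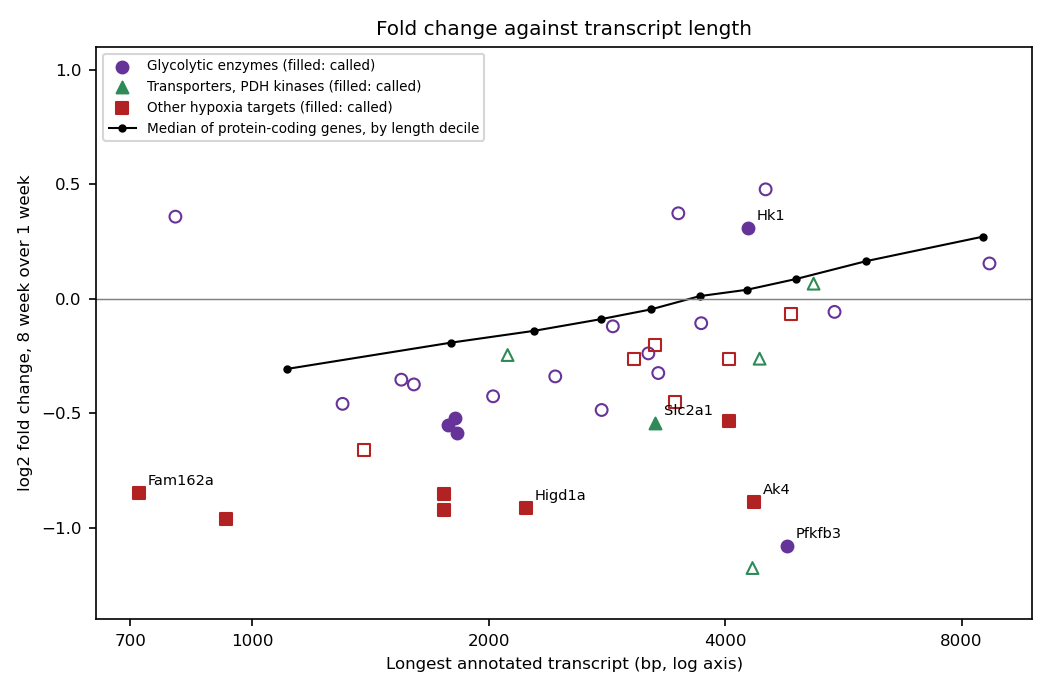
Log2 fold change (8 week over 1 week) against the length of the longest annotated transcript on a log axis. Symbols are members by group, filled where called, and the black line joins the medians of protein-coding genes in 10 length classes. Fam162a, with a transcript of 718 bp, lies in the shortest class, whose median was -0.31, while Pfkfb3 (4801 bp) and Ak4 (4360 bp) lie below 0 where the line lies above it.

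Markers of the sorted cells were abundant and those of most other cell types scarce. The 10 keratinocyte markers, led by Krt5, a basal cell keratin, summed to 42319 to 48187 CPM at 1 week and 36033 to 45919 CPM at 8 weeks, with 0 of 10 called by edgeR (5 at an unadjusted p under 0.05). At an adjusted p under 0.05 in the authors' deposited table, 4 of these markers were higher and 1 (Krt14) was lower. Of the 6 fibroblast markers, Dcn (decorin) made up nearly all of a sum of 923 to 1161 CPM at 1 week and 399.5 to 776 CPM at 8 weeks, and it fell (log2 fold change -0.87, SE 0.18, edgeR adjusted p = 0.0231), a call lost without 1 week 1 (0.0683), 8 week 1 (0.0742) or 8 week 3 (0.0627). The collagen genes Col1a1, Col1a2 and Col3a1 had means under 1 CPM in both groups. Summed endothelial markers ran from 5.43 to 9.04 CPM and from 4.64 to 8.66 CPM, leukocyte markers from 1.13 to 2.85 and from 1.65 to 3.68 CPM, and skeletal muscle markers from 9.12 to 14.6 and from 7.85 to 9.90 CPM. Summed erythroid markers were higher at 8 weeks (3.38 to 13.9 against 23.1 to 71.7 CPM, 3 of 6 called). Salivary gland markers stayed under 2 CPM in all libraries. The rows used here held none of Lum, Cldn5, Cd3e, Cd207 and the salivary markers Prol1, Smgc, Muc10 and Prb1. The part of any of these in the members' changes was not tested.

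At glucose entry, the transporter gene of the set fell. Slc2a1 encodes GLUT1, the glucose transporter of basal epithelial cells, and lies on chromosome 4 (119108711 to 119137983, plus strand, GRCm38, as all positions here). It measured 146, 159, 139.9 and 129.8 CPM in the 1 week libraries and 106, 97.6, 107 and 83.9 CPM in the 8 week libraries. Every 8 week library was below every 1 week library, with means of 144 ± 12.35 and 98.45 ± 10.5 CPM (SD, n = 4). The log2 fold change was -0.55 (SE 0.10, edgeR adjusted p = 0.0169), and it was nearly the same with the length and GC offset (-0.52, adjusted p = 0.0231). It lost its call without 1 week 1 (adjusted p = 0.0534).

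Hexokinases trap glucose in the cell as glucose 6-phosphate. Hk1 measured 178, 181, 169 and 174 CPM at 1 week and 208, 215.5, 219 and 227 CPM at 8 weeks, so that the lowest 8 week library stood above the highest of 1 week. Its mean went from 175 ± 5.38 to 217 ± 7.68 CPM, a rise of 23.9% (log2 fold change 0.31, SE 0.09, edgeR adjusted p = 0.0483). That call rested on all 8 libraries, since leaving out any 1 of them gave adjusted p-values from 0.051 to 0.133, and the offset gave 0.23 with an adjusted p of 0.11. Hk2, the isoform known as inducible by insulin and hypoxia, did not pass the test (log2 fold change -0.06, SE 0.10). The ratio of Hk2 to Hk1 counts within each library does not depend on library scaling. Its log2 value was -0.57 ± 0.08 at 1 week and -0.94 ± 0.14 at 8 weeks (SD, n = 4), without overlap, which is a ratio 1.29-fold lower at 8 weeks.

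At the phosphofructokinase step, which commits glucose 6-phosphate carbon to glycolysis, none of the 3 subunit genes was called by edgeR. Log2 fold changes were -0.11 for Pfkl (liver type), -0.12 for Pfkm (muscle type) and 0.15 for Pfkp (platelet type), and that of Pfkp turned to -0.10 with the offset. Per kilobase of the principal transcript at 1 week, Pfkp stood at 40.5, Pfkl at 31.5 and Pfkm at 7.29 CPM per kilobase. The log2 ratio of Pfkp to Pfkl counts was 0.52 ± 0.09 at 1 week and 0.78 ± 0.06 at 8 weeks, without overlap between the ages. The longest annotated transcript, which the offset uses, is longer for Pfkp than for Pfkl (8681 against 3730 bp). Their principal transcripts are closer in length (4145 against 3730 bp). The length trend of the libraries ran in the same direction as the ratio. With the offset the log2 fold changes of the genes lay close together, at -0.10 for Pfkp and -0.15 for Pfkl. The part of the length trend in the ratio was not tested.

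The bifunctional enzymes that set fructose 2,6-bisphosphate, the activator of phosphofructokinase, were expressed at low levels, and 1 of the 3 genes was called. Pfkfb3, the isoform with the highest ratio of kinase to phosphatase activity and a known hypoxia target, measured 14.4, 15.8, 6.86 and 9.26 CPM at 1 week and 4.09, 4.56, 6.205 and 7.09 CPM at 8 weeks. The highest 8 week library lay just above the lowest of 1 week, so the ages overlapped. The mean went from 11.6 ± 4.23 to 5.49 ± 1.40 CPM, which was the largest fitted decline among the called members (log2 fold change -1.08, SE 0.28, edgeR adjusted p = 0.0393; -1.18 and 0.047 with the offset). Its call was lost without 1 week 1 (adjusted p = 0.122), 1 week 2 (0.0872), 8 week 1 (0.123), 8 week 3 (0.0878) or 8 week 4 (0.0506). Pfkfb2 stood at 0.48 on the same scale (SE 0.17, adjusted p = 0.087), and was called only when 8 week 2 was left out (0.59, adjusted p = 0.0287). Pfkfb4 had 0.37 and was not called.

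The glycolytic enzymes covered a wide range of transcript levels. Per kilobase at 1 week, Pkm stood at 354, Ldha at 331, Gapdh at 274, Aldoa at 238, Eno1 at 170, Pgk1 at 109, Gpi1 at 105, Pgam1 at 104 and Tpi1 at 97.9 CPM per kilobase. Hk1, the most abundant gene of the steps that spend ATP, stood at 45.6. Neighbours in this order that differed by less than their spread included Pkm and Ldha, and Pgk1, Gpi1, Pgam1 and Tpi1.

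**Figure D3:**
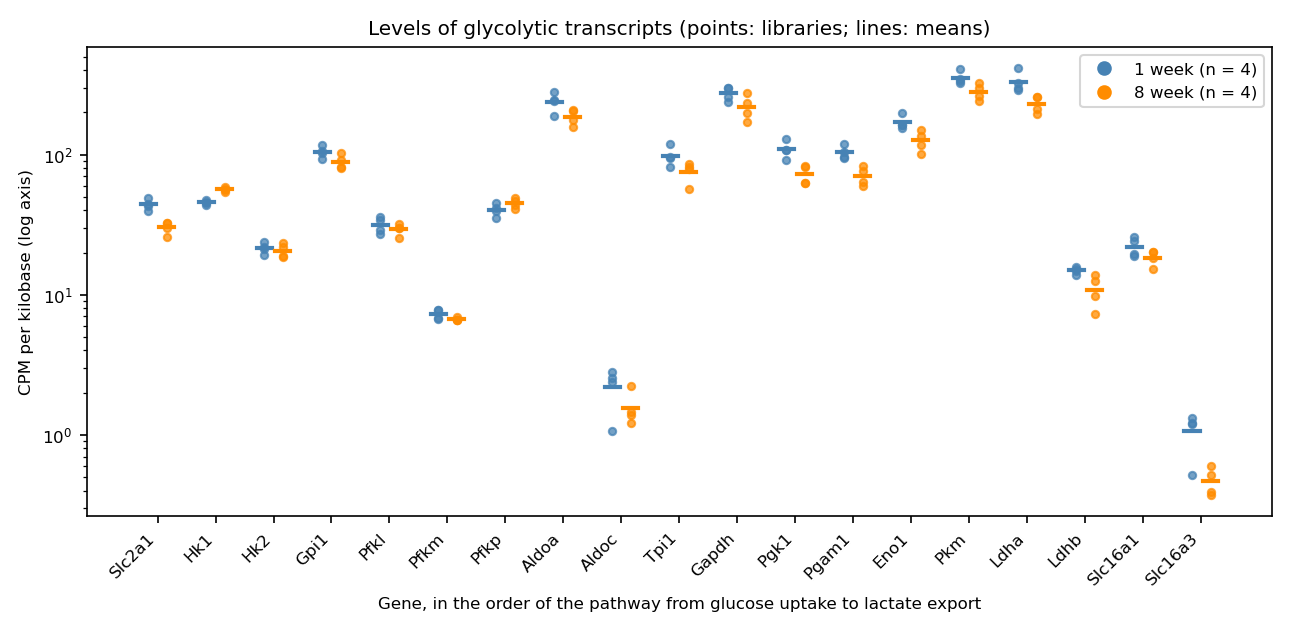
CPM per kilobase of the principal transcript, on a log axis, for genes from glucose uptake to lactate export. Points are libraries, lines are means of 4. Among the enzymes shown, Hk1 is the gene whose 8 week points all lie above its 1 week points, and for Slc2a1, Pgk1, Pgam1, Eno1, Pkm, Ldha and Ldhb all 8 week points lie below.

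Phosphoglycerate kinase 1 (Pgk1), which makes the first ATP of the pathway, measured 236, 197, 166 and 197 CPM at 1 week and 113.5, 152, 115 and 149.7 CPM at 8 weeks. The ages did not overlap, and the means were 199 ± 28.5 and 132 ± 21.25 CPM. Its log2 fold change was -0.59 (SE 0.13, edgeR adjusted p = 0.0285), and -0.43 (0.0479) with the offset. Phosphoglycerate mutase 1 (Pgam1), the next enzyme, measured 209.6, 186, 169 and 171.5 CPM at 1 week against 113, 147, 105 and 136 CPM at 8 weeks. Every 8 week library lay below every 1 week library here too. For Pgam1 the log2 fold change was -0.55 (SE 0.12, edgeR adjusted p = 0.0258), and -0.40 (0.0389) with the offset. The calls of both genes were lost without 1 week 1 (adjusted p 0.0879 for Pgk1 and 0.0821 for Pgam1), without 8 week 1 (0.0926 and 0.0866) and without 8 week 3 (0.0897 and 0.0829).

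Lactate dehydrogenase A (Ldha), which favours lactate formation, measured 728, 574, 508 and 529.9 CPM at 1 week and 346, 455, 375 and 452 CPM at 8 weeks. The highest value was that of 1 week 1, and the ages did not overlap. The log2 fold change was -0.52 (SE 0.14, edgeR adjusted p = 0.0422), and the call did not hold with the offset (-0.36, adjusted p = 0.0855). It was also lost without 1 week 1 (0.123), 1 week 2 (0.0704), 8 week 1 (0.13), 8 week 3 (0.126) or 8 week 4 (0.0604). The heart type subunit gene Ldhb, far lower per kilobase (14.9 against 331 at 1 week), had a log2 fold change of -0.46 and was called only without 8 week 2 (-0.60, adjusted p = 0.0462). The ratio of Ldhb to Ldha counts overlapped between the ages, with log2 values of -4.90 ± 0.19 and -4.88 ± 0.28.

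Eno1, Pkm and Gapdh, though abundant, were not called by edgeR. Eno1 (enolase 1) measured 402, 329.5, 315 and 327 CPM at 1 week and 206, 304, 238 and 275 CPM at 8 weeks, without overlap. Its log2 fold change was -0.43 (SE 0.13, edgeR adjusted p = 0.0643), while the authors' deposited table gave it an adjusted p of 0.0303, and without 8 week 2 edgeR called it (-0.53, adjusted p = 0.0278). Pkm, the pyruvate kinase of most tissues, measured 997, 841, 794 and 815 CPM against 582, 783, 638 and 722 CPM. The ages did not overlap, but by a narrow margin between 1 week 3 and 8 week 2, and the log2 fold change was -0.34 (SE 0.12, edgeR adjusted p = 0.101). Gapdh, often used as a reference gene, measured 422, 366, 427 and 339 CPM against 240.5, 392, 280.3 and 329 CPM. The ages overlapped through 8 week 2, with a log2 fold change of -0.32 (SE 0.14, edgeR adjusted p = 0.162; -0.46 and 0.0426 without 8 week 2). Gpi1, Aldoa and Tpi1 had log2 fold changes of -0.24 to -0.37 with overlapping ages, and Aldoc, at 2.19 CPM per kilobase, -0.49 with overlap. The second row named Aldoa (ENSMUSG00000114515, chromosome 7, 126800790 to 126809108) held 106 counts in all libraries together and gave no call.

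Lactate and protons leave cells through monocarboxylate transporters. Slc16a1 (MCT1) measured 114, 107, 85.95 and 84.2 CPM at 1 week and 80.55, 88.7, 67.5 and 89.1 CPM at 8 weeks. The ages overlapped, and the log2 fold change of -0.26 (SE 0.13) was not called by edgeR (adjusted p = 0.192). Slc16a3 (MCT4), the exporter of highly glycolytic cells and a hypoxia target, was scarce at 5.73, 5.27, 2.26 and 5.16 CPM against 1.69, 2.245, 1.62 and 2.60 CPM. Only 1 week 3 reached the 8 week range. Its log2 fold change of -1.18 (SE 0.33) missed the threshold in edgeR (adjusted p = 0.0518), passed it in the authors' deposited table (0.017), and passed it in edgeR without 1 week 3 (-1.41, 0.026) or without 8 week 2 (-1.24, 0.0487). It rests on 343 counts over the 8 libraries and overlaps Csnk1d on the other strand (9868 counts), and the strand setting of the counting is not given in the sources used here.

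Pyruvate dehydrogenase kinases keep pyruvate out of the mitochondrion by inhibiting pyruvate dehydrogenase, and neither kinase gene was called by edgeR. Pdk1, the classical hypoxia target of the pair, had a log2 fold change of 0.07 (SE 0.12) and turned to -0.04 with the offset. Pdk3, which was the more abundant per kilobase at 1 week (30.1 against 7.79), measured 72.7, 57.3, 59.5 and 64.7 CPM at 1 week and 51.7, 62.2, 39.9 and 60.7 CPM at 8 weeks. The ages overlapped, and the log2 fold change was -0.25 (SE 0.14, adjusted p = 0.261).

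**Figure D4:**
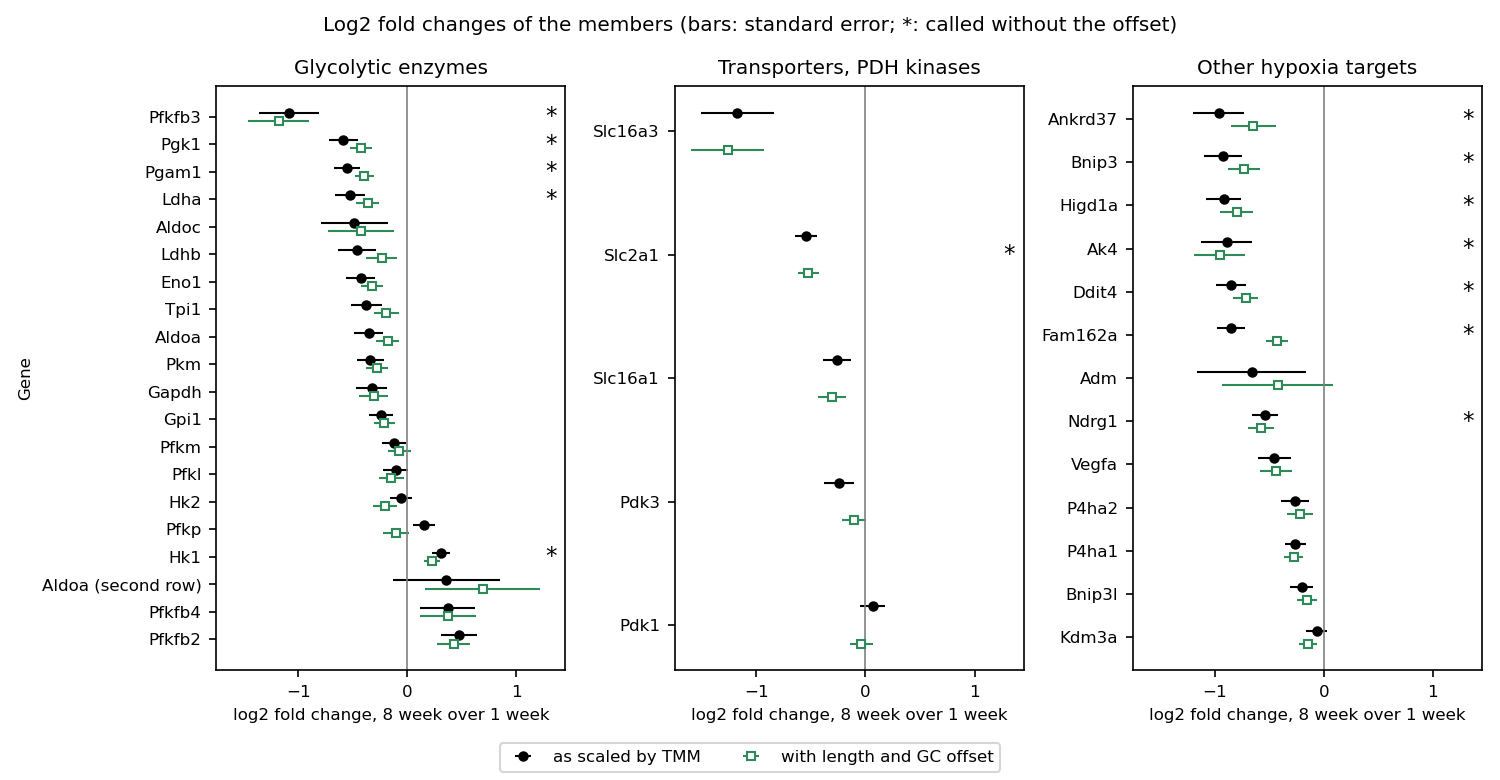
Log2 fold changes (8 week over 1 week) of all 38 rows in their 3 groups. Black circles are the values with TMM scaling, green squares those with the length and GC offset, bars are standard errors, and stars mark genes called without the offset. All 13 other hypoxia targets lie below 0 with either setting, and Fam162a moves most toward 0 among the called genes, from -0.85 to -0.43.

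Among the 7 other hypoxia targets that fell, 4 encode mitochondrial proteins. Fam162a, a mitochondrial protein described as a hypoxia-inducible mediator of cell death, was the most abundant of these targets per kilobase (848 CPM per kilobase at 1 week) and also exceeded every glycolytic gene on that scale. It measured 678, 619, 530.5 and 608 CPM at 1 week and 316, 407, 276.5 and 353 CPM at 8 weeks. The lowest 1 week library stood well above the highest of 8 weeks, and means were 609 ± 60.5 and 338 ± 55.4 CPM. The log2 fold change was -0.85 (SE 0.13, edgeR adjusted p = 0.00807) and the call held in all 8 fits that left out 1 library, but the size fell to -0.43 with the offset (adjusted p = 0.0458). Wdr5b, on the opposite strand within the same locus, held 553 counts against 49741 for Fam162a. It was called higher at 8 weeks (log2 fold change 0.88, edgeR adjusted p = 0.0464). Of the fits that left out 1 library, only that without 1 week 3 kept this call.

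Higd1a encodes a protein of the inner mitochondrial membrane that associates with the respiratory chain. It measured 71.8, 45.3, 41.2 and 53.8 CPM at 1 week and 24.0, 27.2, 29.1 and 32.1 CPM at 8 weeks, with 1 week 1 the highest of its age and no overlap. Its log2 fold change was -0.92 (SE 0.16, edgeR adjusted p = 0.0127), and -0.80 (0.0249) with the offset. The call held without each library in turn, with adjusted p-values up to 0.0443.

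Bnip3 and Bnip3l encode related receptors of the outer mitochondrial membrane that recruit the autophagy machinery. Bnip3 measured 64.4, 43.5, 46.9 and 66.5 CPM at 1 week and 20.5, 33.8, 28.5 and 34.2 CPM at 8 weeks. The ages did not overlap, and the log2 fold change was -0.92 (SE 0.18, edgeR adjusted p = 0.0169; -0.73 and 0.0263 with the offset). Its call was lost without 1 week 1 (adjusted p = 0.0562) or 8 week 3 (0.0533). Bnip3l ran from 88.6 to 102 CPM at 1 week and from 72.0 to 93.9 CPM at 8 weeks, overlapping, with a log2 fold change of -0.20 that was not called. The log2 ratio of Bnip3l to Bnip3 counts in the same library was 0.84 ± 0.23 at 1 week and 1.55 ± 0.18 at 8 weeks, a ratio 1.64-fold higher at 8 weeks with no overlap. The transcript of Bnip3l is the longer (3259 against 1756 bp). With the offset the log2 fold changes stayed apart, at -0.15 for Bnip3l and -0.73 for Bnip3. The part of the length trend in this ratio was not tested.

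**Figure D5:**
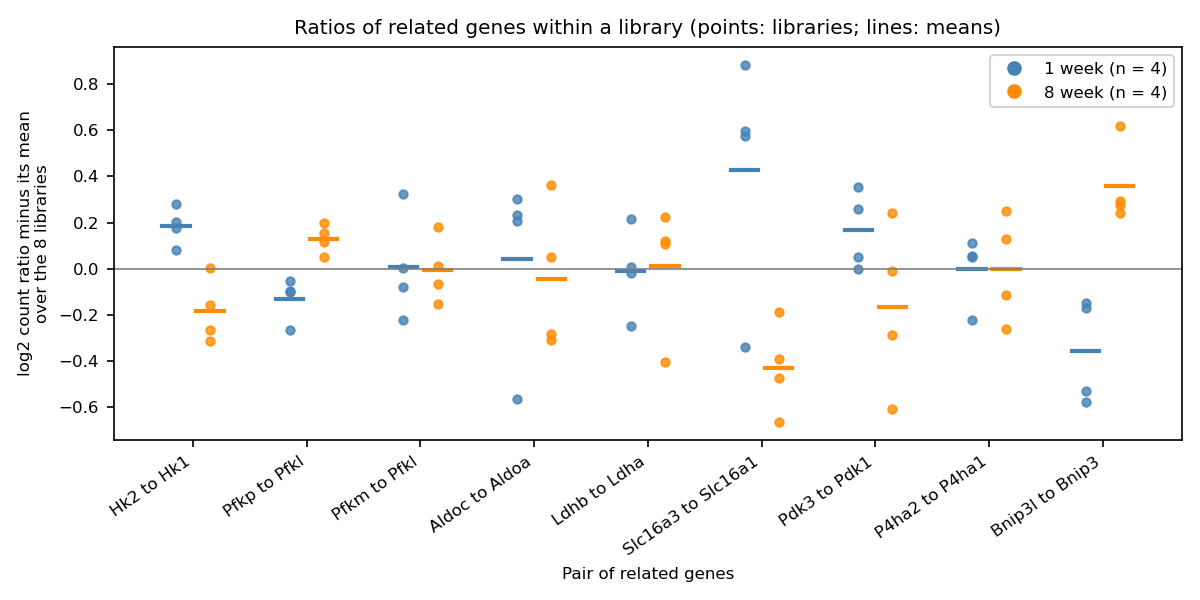
Log2 ratio of counts of 2 related genes in each library, minus its mean over the 8 libraries, so that library scaling cancels. Points are libraries and lines are means of 4. The ages separate for Hk2 to Hk1, Pfkp to Pfkl and Bnip3l to Bnip3, and overlap for the other 6 pairs.

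Ak4, an adenylate kinase of the mitochondrial matrix, measured 20.9, 18.3, 11.5 and 14.1 CPM at 1 week and 9.155, 5.24, 10.2 and 10.3 CPM at 8 weeks. Its 1 week libraries spread widely but stayed above those of 8 weeks. Between the ages the log2 fold change was -0.89 (SE 0.23, edgeR adjusted p = 0.0422), and -0.95 (0.0496) with the offset. The call was lost without 1 week 1 (adjusted p = 0.133), 1 week 2 (0.0825), 8 week 1 (0.109), 8 week 3 (0.0863) or 8 week 4 (0.0601).

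Of the targets outside mitochondria, Ddit4 (REDD1), an inhibitor of mTORC1 that is also induced by glucocorticoids and DNA damage, measured 56.1, 58.1, 46.5 and 41.2 CPM at 1 week and 23.0, 33.0, 25.85 and 30.25 CPM at 8 weeks. The ages did not overlap, with means of 50.5 ± 7.98 and 28.0 ± 4.46 CPM. The log2 fold change was -0.85 (SE 0.14, edgeR adjusted p = 0.0107), and -0.71 (0.0107) with the offset. The call held in each of the 8 fits without 1 library, with adjusted p-values up to 0.0422.

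Ndrg1, a stress-responsive gene of differentiating epithelia, measured 85.6, 70.9, 63.8 and 78.1 CPM at 1 week and 48.0, 58.7, 44.1 and 55.2 CPM at 8 weeks. The ages did not overlap, and the log2 fold change was -0.54 (SE 0.12, edgeR adjusted p = 0.0285; -0.58 and 0.0325 with the offset). Leaving out 1 week 1 (adjusted p = 0.0899), 8 week 1 (0.0919) or 8 week 3 (0.0897) ended the call. Ankrd37, an ankyrin repeat protein, was scarce at 9.66, 11.6, 6.86 and 11.3 CPM against 3.71, 6.51, 4.65 and 5.40 CPM. The margin between the ages was narrow, at 1 week 3 and 8 week 2. Its log2 fold change of -0.96 (SE 0.23, edgeR adjusted p = 0.0343) lost its call with the offset (-0.65, 0.104), and without any 1 library other than 1 week 3 or 8 week 2 the adjusted p ran from 0.0593 to 0.107. Ankrd37 overlaps Ufsp2 on the other strand, which held 4614 counts against 778.

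The remaining 5 hypoxia targets were not called by edgeR. Vegfa, the main angiogenic factor of epithelia, measured 32.6, 45.5, 32.3 and 40.1 CPM at 1 week and 23.2, 23.6, 28.2 and 35.1 CPM at 8 weeks. The ages overlapped through 8 week 4, and the log2 fold change was -0.45 (SE 0.15, adjusted p = 0.0826). P4ha1, a catalytic subunit of collagen prolyl 4-hydroxylase, was lower without overlap (63.8 to 70.9 against 50.2 to 60.15 CPM), with a log2 fold change of -0.26 and an adjusted p of 0.0978. Its relative P4ha2 had the same log2 fold change of -0.26, with overlap. Kdm3a, a histone H3 lysine 9 demethylase, had -0.07, and Adm, the precursor of the vasodilator adrenomedullin, had -0.66 at a mean of 2.505 CPM at 1 week with an SE of 0.50.

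Single libraries were high or low for many of these genes at once. Of the 1 week libraries, 1 week 1 was the highest for 23 of 38 rows and 1 week 3 the lowest for 25. Of the 8 week libraries, 8 week 2 was the highest for 16 and 8 week 1 the lowest for 19. The steepest negative length slope was that of 1 week 1 and the steepest positive slope that of 8 week 1. The same counts were not made over all genes, and the part of the length slopes in them was not tested. Of the members, 3 were called lower without 1 week 1 (Fam162a, Ddit4 and Higd1a) and 5 without 8 week 1. Without 8 week 3 it was 4, and without 8 week 2 it was 16. Over all genes tested, these fits called 59 of 14973, 66 of 14796, 43 of 14796 and 1048 of 15016 lower, in the same order. Hk1 was not called in any of these fits.

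Genes upstream of the response moved in both directions. Hif1a, the widely expressed alpha subunit, fell from 417, 348, 308 and 349.5 CPM at 1 week to 247, 252.5, 209.9 and 269 CPM at 8 weeks. The ages did not overlap (log2 fold change -0.54, SE 0.12, edgeR adjusted p = 0.0252; -0.61 and 0.0234 with the offset), and the call was lost without 1 week 1 (adjusted p = 0.0727), 8 week 1 (0.069) or 8 week 3 (0.0825). Epas1, which encodes the alpha subunit HIF-2, rose from 45.6, 39.3, 51.25 and 60.9 CPM to 114, 87.7, 119 and 104 CPM, again without overlap (log2 fold change 1.11, SE 0.14, edgeR adjusted p = 0.00269; 0.96 and 0.00454 with the offset), with adjusted p-values up to 0.0119 when 1 library was left out. The other 7 tested genes of this list of 10, among them Arnt, the shared partner subunit, and the oxygen-sensing hydroxylase genes Egln1 and Egln3, were not called. The alpha subunits are regulated mainly through protein stability, which these data do not measure.

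Further genes of the same pathways were counted beside all genes tested. Of those, 3.22% were called lower and 3.33% higher, and 4041 of 14533 had an unadjusted p under 0.05. In lists as short as these, 0 calls lies close to those shares. Of 41 hypoxia targets outside the 37 names, 34 were tested and 0 were called by edgeR, with 5 at an unadjusted p under 0.05 and 1 called in the authors' deposited table. Their median log2 fold change was -0.13, and the most abundant, P4hb (protein disulfide isomerase), had -0.13. Of 37 genes of glycolysis and its branches, including the pentose phosphate pathway, 24 were tested and 0 were called by edgeR, with 4 at an unadjusted p under 0.05 and a median of -0.10. The most abundant of these, Bsg (basigin, the chaperone of monocarboxylate transporters), had -0.20, and with the offset Fbp2, a fructose bisphosphatase, was called higher (0.52, adjusted p = 0.0498). Of 12 genes of pyruvate entry to the mitochondrion, 0 were called by edgeR, 3 had an unadjusted p under 0.05, the median was -0.17 and the most abundant, citrate synthase (Cs), had -0.23.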

How the data were processed

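Total RNA of 8 libraries was measured by sequencing. Per the submitters' processing notes, the tools were TopHat2 2.1.1, HTSeq 0.6.0, cutadapt 2.10, bcl2fastq 2.20.0.422 and DESeq2 1.26.0, with the GRCm38 build; the annotation release and the strand setting are not given in the sources used here. The deposited table held raw counts per gene and library, the basis of every test here. Beside them stood the authors' size-factor signal, which is each count over its library's size factor, and the authors' log2 fold change, Wald score and p-value, raw and adjusted. All genes in it had at least 10 counts over the libraries.

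Testing of the counts used edgeR 4.0.16 under R 4.3.3 (TMM scaling, filterByExpr at its minimum count 10 and minimum total 15, two-sided quasi-likelihood F test of 8 week against 1 week, 4 libraries each, Benjamini-Hochberg adjustment over 14533 genes). SE values derive from the F statistic. CPM values use TMM-scaled libraries, and their errors are SDs. Transcript lengths and GC content came from GENCODE M21 (99.8% of genes): the longest transcript for the offset (splines with 4 degrees of freedom each), the principal transcript for levels per kilobase. On simulated data with the length slopes of these libraries built in, the fit without the offset made 76 false calls and the fit with it 9. Without a built-in trend, both fits made 16. Of the 1.5-fold changes built in, each fit recovered 41.8% without a trend. With the trend, 44.8% were recovered without the offset and 46.3% with it. A gene not called is therefore not shown to be unchanged. These simulations cannot show where the length trend of the real libraries comes from. Alternatives were the DESeq2 scaling and its Wald test (DESeq2 1.42.0), library size alone, no filter, leaving out libraries, replicate blocks and the offset.

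Every member was named, with values in every library for called members and for the 3 most abundant and 3 most changed of each group. Members, lists and alternatives were chosen with earlier results of these data known. The result of 1 marker list is not reported here.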

Additional observations from a re-analysis of the deposited data

Results flagged for a closer look

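Of 76 groups of 4 libraries (38 rows at each age), 5 held a library whose gap to its nearest neighbour, as a share of the range, exceeded Dixon's critical value for 4 samples, and chance flags about 1 group in 20. Pfkm stood at 20.07 CPM in 8 week 4 against 19 to 19.13 CPM in the other 8 week libraries, a small difference. Pfkfb4 stood at 12.47 CPM in 8 week 3 against 6.434 to 7.369 CPM. Eno1 stood at 401.9 CPM in 1 week 1 against 315.3 to 329.5 CPM, and P4ha1 at 70.86 CPM in the same library against 63.76 to 64.92 CPM. Slc16a3 was low in 1 week 3, at 2.26 CPM against 5.163 to 5.726 CPM.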

How the results depend on the processing

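The members called lower (12) and higher (1) numbered 12 and 1 with the DESeq2 scaling, 10 and 1 with library size alone, 10 and 0 without the filter, 15 and 1 with the Wald test of DESeq2 and 10 and 0 with the length and GC offset. Over all genes, 484 were higher and 468 lower, against 588 and 255 with library size alone, 265 lower without the filter, 1006 and 1028 with DESeq2 and 174 and 232 with the offset. Leaving out 1 library gave 48 to 843 genes higher and 43 to 1048 lower, and 0 to 1 members higher and 3 to 16 lower; the fewest members lower came without 1 week 1 (3), 8 week 3 (4) and 8 week 1 (5), and the 1 member higher without 8 week 2 was Pfkfb2. Without 1 week 1 and 1 week 4 together, 31 genes were higher and 29 lower, with 0 members higher and 1 lower (Ddit4). Libraries with the same number in their titles did not deviate together (correlations of deviations from -0.339 to -0.0891). The numbers were therefore not used as pairs in the main fit, though so few correlations cannot exclude pairing. A replicate block by title number gave 78 genes higher and 83 lower, with 0 members higher and 5 lower (Fam162a, Ddit4, Higd1a, Bnip3 and Slc2a1). The title block with the offset gave 60 and 79, with 0 and 4. A block by library name used only libraries whose number occurs at both ages, without 1 week 3 and 8 week 3. It gave 26 and 66, with 0 and 1 (Higd1a), and the block and the smaller number of libraries cannot be told apart there. Signs turned only for uncalled members: with library size alone Hk2 (0.0383) and Kdm3a (0.0348), without 1 week 1 and 1 week 4 together Pfkl (0.0619), the second Aldoa row (-0.0945), Adm (0.0746) and Kdm3a (0.00349), with the offset Pfkp (-0.101) and Pdk1 (-0.0382), with the offset and the title block Pfkp (-0.0966) and Pdk1 (-0.0312), and with the block by library name Pdk1 (-0.0308). Without 1 library each, Pdk1 ranged from -0.0203 (without 1 week 3) to 0.133. The causes were not tested. The largest errors among the members were those of Adm (SE 0.50), the second Aldoa row (0.49), Slc16a3 (0.33), Aldoc (0.31), Pfkfb3 (0.275) and Pfkfb4 (0.25). Of these, Pfkfb3 had a mean of 11.6 CPM at 1 week, and the others had means under 10 CPM at both ages.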
